A study of Mus musculus with 4 samples.

Results

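The genes of the Nodal, Lefty and activin pathway were followed in RNA-seq of mouse embryonic stem cells (mESCs). The members are listed by name, and no measured value enters the rule, although earlier results of these data were known when the list was made: the ligands *Nodal* and *Gdf3*, the co-receptor *Tdgf1*, the receptors *Acvr1b* and *Acvr2b*, the secreted inhibitors *Lefty1*, *Lefty2* and *Cer1*, and the intracellular inhibitor *Smad7*. These are 9 of the 37310 genes in the count table. All 9 were found there by symbol, 8 gave an adjusted p, and *Cer1* was close to undetected.

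The study compared the wild-type (WT) HATX line with *Spen* KO clone 2, a clone described as carrying a deletion of *Spen*, and each group holds 2 libraries. Both groups are mESCs that carry an *Xist* transgene switched on by doxycycline. The study describes them as haploid and grown in serum with LIF, and the labels give no treatment and no time point. The question is which genes change when Spen, an RNA-binding repressor needed for X inactivation by *Xist*, is missing. Each group is 1 line or clone, so whatever else sets the clone apart from its WT line cannot be told apart from the loss of *Spen*. Nothing states that the libraries of a group came from separate cultures, so every p-value below measures the spread between these libraries, which may be technical.

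Nodal and the activins are secreted ligands of the TGF-β family. They bind receptor pairs built from a type I receptor such as Acvr1b and a type II receptor such as Acvr2b, and Nodal and Gdf3 also need a co-receptor of the Cripto family, of which Tdgf1 is the founding member. The active receptor phosphorylates Smad2 and Smad3, which enter the nucleus with Smad4 and act on target genes with partners such as Foxh1. *Nodal* itself and both *Lefty* genes are among the targets, so the pathway makes its own ligand and its own inhibitor. In the embryo it patterns the epiblast, the primitive streak and the left-right axis, and in cultured mESCs it is active without added ligand.

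Total counts ranged from 36667685 to 61908422 per library, and both KO-labelled libraries were deeper than both WT ones. Counts per gene do not show which part of *Spen* was transcribed and so do not check the label. *Spen* also overlaps a gene on the opposite strand, and the strand setting of the counting is not stated. Its counts were higher in the KO-labelled libraries, at 7797 and 6242 normalized counts against 3716 and 3047 in WT (log2 fold change 1.05 ± 0.21, DESeq2 adjusted p = 7.70e-06). The group is therefore called KO-labelled. Markers of pluripotent cells summed to 191485 to 193489 normalized counts in WT and 201588 to 207816 in the KO-labelled libraries. None of these 8 markers was at 0, so the defining markers of the labelled cell type were present. Throughout, normalized counts are counts divided by the DESeq2 size factor of the library, log2 fold changes are KO-labelled over WT with their standard error, and adjusted p-values are from DESeq2 over 17710 genes. A call needs 2-fold or more in either direction together with an adjusted p under 0.001.

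*Lefty1* and *Lefty2* come first because the results turn on them and because they are near copies, which decides how well reads can be assigned. Both encode secreted proteins that block Nodal by binding it and its co-receptor. They lie on the same strand of chromosome 1 (mm9), *Lefty2* at chr1:182823239-182829234 and *Lefty1* at chr1:182865153-182868531, 35919 bp apart, and each has 4 exons. Their coding sequences are each 1107 bases long and align without a gap, with 1017 identical bases (91.9%) and a longest identical run of 140 bases.
The 90 coding bases where they are least alike lie in the first coding exon, at coding bases 35 to 124 (*Lefty1* chr1:182865275-182865364, *Lefty2* chr1:182823349-182823438, plus strand). They are shown because reads there tell the genes apart. Capitals mark the 27 bases that differ:
Lefty1, least alike: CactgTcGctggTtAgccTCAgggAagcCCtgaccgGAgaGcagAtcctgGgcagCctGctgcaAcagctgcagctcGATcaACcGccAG
Lefty2, least alike: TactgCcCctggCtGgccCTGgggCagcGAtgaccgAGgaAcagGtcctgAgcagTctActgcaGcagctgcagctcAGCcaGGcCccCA
Over whole exons, 27.9% of *Lefty1* bases and 22.7% of *Lefty2* bases lay in a run of 75 bases that occurs elsewhere in the genome. The remaining bases have no exact copy of that length.

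*Lefty2* rose in the KO-labelled cells, and it was the only member called. Its libraries held 3165 and 3389 normalized counts in WT and 7853 and 8482 in the KO-labelled group. The groups are far apart, and each pair of libraries lies close together. The means were 3277 ± 159 and 8168 ± 445 (SD, n = 2), a fold change of 2.49 and a log2 fold change of 1.32 ± 0.08 (DESeq2 adjusted p = 5.47e-57). Of the 17710 genes tested, 366 had a higher log2 fold change. For comparison, 4.51% of all tested genes were called, 1.36% higher and 3.15% lower. A test against a fold change of 2, instead of no change, was also passed (adjusted p = 0.00923).

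*Lefty1* gave values of the opposite sign that did not pass the test. It held 2767 and 3022 normalized counts in WT and 2505 and 2718 in the KO-labelled libraries. Every KO-labelled library was below every WT one. The closest values of the groups, WT replicate 1 and KO-labelled replicate 2, lay nearer to each other than the WT libraries did. The log2 fold change was -0.15 ± 0.09, with a 95% interval from -0.33 to 0.04 (DESeq2 adjusted p = 0.239). The upper end of the interval is far below the rise of *Lefty2*. With chromosome medians removed *Lefty1* stood at -0.25 and passed at 0.05 (adjusted p = 0.0303), beside a median of 0.10 for chromosome 1.

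The ratio of the pair within a library does not depend on sequencing depth. Per kilobase of exon, *Lefty2* stood at 0.770 and 0.755 times the level of *Lefty1* in the WT libraries and at 2.11 and 2.10 times in the KO-labelled ones. On this scale *Lefty1* was thus the higher of the pair in both WT libraries, and *Lefty2* in both KO-labelled libraries. The order in WT rests on the division by length, since the raw count ratios there were 1.14 and 1.12. How reads in shared sequence were assigned is not stated, so the levels and the ratio are uncertain to that extent. The mean ratios were 0.763 ± 0.0106 and 2.11 ± 0.00663 (SD, n = 2), a log2 difference of 1.47. The exact two-sided permutation test gave p = 0.333, which is the smallest that 2 against 2 allows. *Lefty2* took 53.4% and 52.9% of the summed *Lefty* counts in WT, from 4474 and 5887 counts, and 75.8% and 75.7% in the KO-labelled group, from 11896 and 14312. With the counts of both genes added into 1 feature, the sum rose by a log2 fold change of 0.80 ± 0.08 (adjusted p = 2.52e-23), which is under the fold change of 2 that a call needs.

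**Figure D1:**
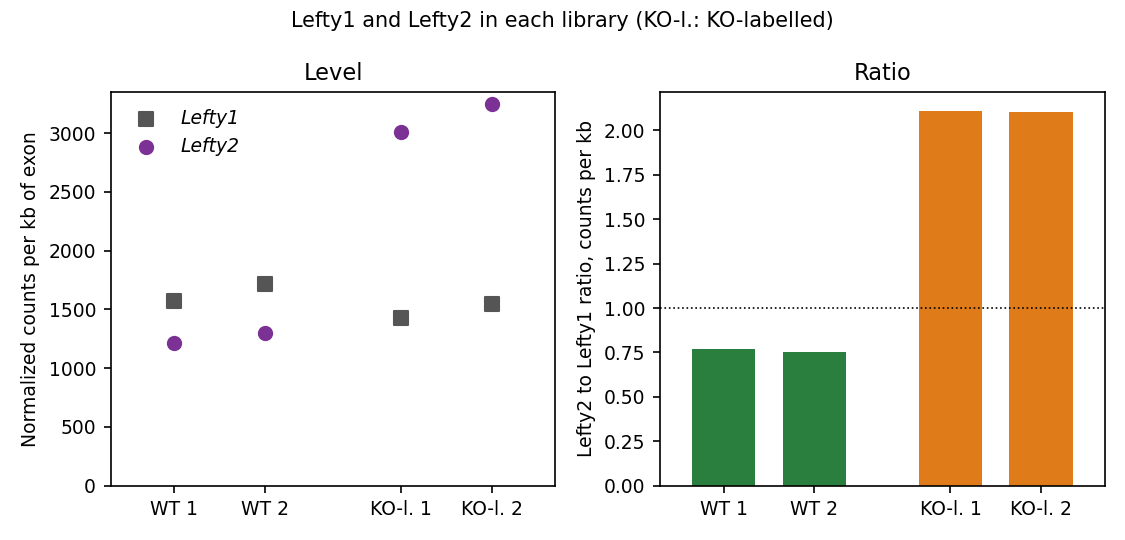
Left, normalized counts per kilobase of exon (y axis) of Lefty1 (squares) and Lefty2 (circles) in each of the 4 libraries, and right, the ratio of Lefty2 to Lefty1 on the same scale (bars), with a dotted line at a ratio of 1. The WT bars stand at 0.770 and 0.755, below the line, and the KO-labelled bars at 2.11 and 2.10, above it.

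The other member inhibitors act at different steps. Cer1 binds Nodal outside the cell, and its gene (chr4:82527655-82531052, minus strand) had 0 counts in 3 libraries and 2 counts in KO-labelled replicate 1. All are within the limit of 3 counts that a count of 0 allows, so no fold is given, and a difference was not detectable at this depth. Smad7 blocks the active receptor inside the cell and is itself a target gene of the pathway. *Smad7* (chr18:75527183-75555589, plus strand) held 5949 and 6624 normalized counts in WT and 7537 and 7296 in the KO-labelled group. Both KO-labelled values were above both WT values, and the WT libraries differed from each other more than the KO-labelled ones did. The means of 6287 ± 478 and 7417 ± 170 (SD, n = 2) gave a log2 fold change of 0.24 ± 0.08 (DESeq2 adjusted p = 0.0111). The gene's chromosome had a median log2 fold change of 0.13 over its genes, and with chromosome medians removed *Smad7* stood at 0.11 (adjusted p = 0.348). It also no longer passed without WT replicate 1 (0.256), KO-labelled replicate 1 (0.150) or KO-labelled replicate 2 (0.0845).

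Among the ligands, *Nodal* did not pass the test and *Gdf3* was slightly lower. *Nodal* (chr10:60880720-60888086, plus strand) held 4490 and 4505 normalized counts in WT and 3833 and 4401 in the KO-labelled group. The WT libraries were nearly equal, and KO-labelled replicate 2 was close to them while replicate 1 was lower. The log2 fold change was -0.13 ± 0.09, with a 95% interval from -0.30 to 0.05 (DESeq2 adjusted p = 0.300). Genes of chromosome 10 as a whole had a median log2 fold change of -0.35, and with chromosome medians removed *Nodal* had the opposite sign, at 0.22 (adjusted p = 0.0503). Gdf3 is a related ligand that can signal through the same receptors. *Gdf3* (chr6:122555421-122560105, minus strand) held 7906 and 7918 normalized counts in WT and 6676 and 6639 in the KO-labelled group. The groups were well apart, and the libraries within each nearly the same. The log2 fold change was -0.25 ± 0.07 (DESeq2 adjusted p = 0.00206). Without any 1 of the 4 libraries *Gdf3* no longer passed, with adjusted p-values from 0.0622 to 0.0842.

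The co-receptor and the receptors gave no change that passed the test. *Tdgf1* (chr9:110842114-110848662, minus strand) was the most abundant member, at 42595 and 40950 normalized counts in WT and 39073 and 43666 in the KO-labelled group. The lowest and the highest value were both KO-labelled, so the groups overlapped. The log2 fold change was -0.01 ± 0.07, with a 95% interval from -0.16 to 0.13 (DESeq2 adjusted p = 0.919). Of its exonic bases, 33.5% lay in 75-base runs with a copy elsewhere, so its level is uncertain where reads could be shared. Acvr1b is the type I receptor of Nodal and activin. *Acvr1b* (chr15:101004556-101043032, plus strand) held 1315 and 1363 normalized counts in WT and 1558 and 1597 in the KO-labelled group. Both KO-labelled values were above both WT values, by more than the libraries of a group differed. Its log2 fold change was 0.24 ± 0.11, with a 95% interval from 0.03 to 0.44, which did not pass after adjustment in DESeq2 (adjusted p = 0.0734) and did in edgeR's quasi-likelihood test (0.0362). Acvr2b is a type II receptor of the same ligands. *Acvr2b* (chr9:119311562-119342619, plus strand) held 537 and 460 normalized counts in WT and 616 and 516 in the KO-labelled group, and the groups overlapped. Its log2 fold change was 0.18 ± 0.17, with a 95% interval from -0.15 to 0.52 (DESeq2 adjusted p = 0.466).

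Across the 8 members tested, 2 were higher (*Lefty2* and *Smad7*) and 1 lower (*Gdf3*) at an adjusted p under 0.05 in DESeq2, and 5 did not pass. At that threshold 32.3% of all tested genes passed, 16.4% higher and 15.8% lower, so the count for the members is close to that of genes at large. The libraries of the groups did not overlap for 6 of the 8, against 70.2% of all tested genes. The median log2 fold change of the 8 was 0.09, beside 0.0049 over all tested genes.

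Levels of different genes were compared per kilobase of exon. In WT, *Tdgf1* stood highest at 21700 ± 604 normalized counts per kilobase (SD, n = 2), far above *Gdf3* at 3723 ± 4.07 and *Nodal* at 2147 ± 4.94. They were followed by *Lefty1* at 1646 ± 103, *Smad7* at 1391 ± 106 and *Lefty2* at 1255 ± 60.7. The receptors were lower, with *Acvr1b* at 409 ± 10.4 and *Acvr2b* at 284 ± 31.2. No neighbours in this order overlapped between their WT libraries. In the KO-labelled libraries *Lefty2* moved from the sixth to the third place, at 3128 ± 170, where it overlapped *Gdf3* at 3133 ± 12.2, and above *Nodal* at 1965 ± 192. The inhibitor *Lefty2* was below the ligand *Nodal* per kilobase in both WT libraries and above it in both KO-labelled ones. *Smad7* at 1641 ± 37.6 and *Lefty1* at 1485 ± 85.6 came next, then *Acvr1b* at 481 ± 8.51 and *Acvr2b* at 323 ± 40.3.

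**Figure D2:**
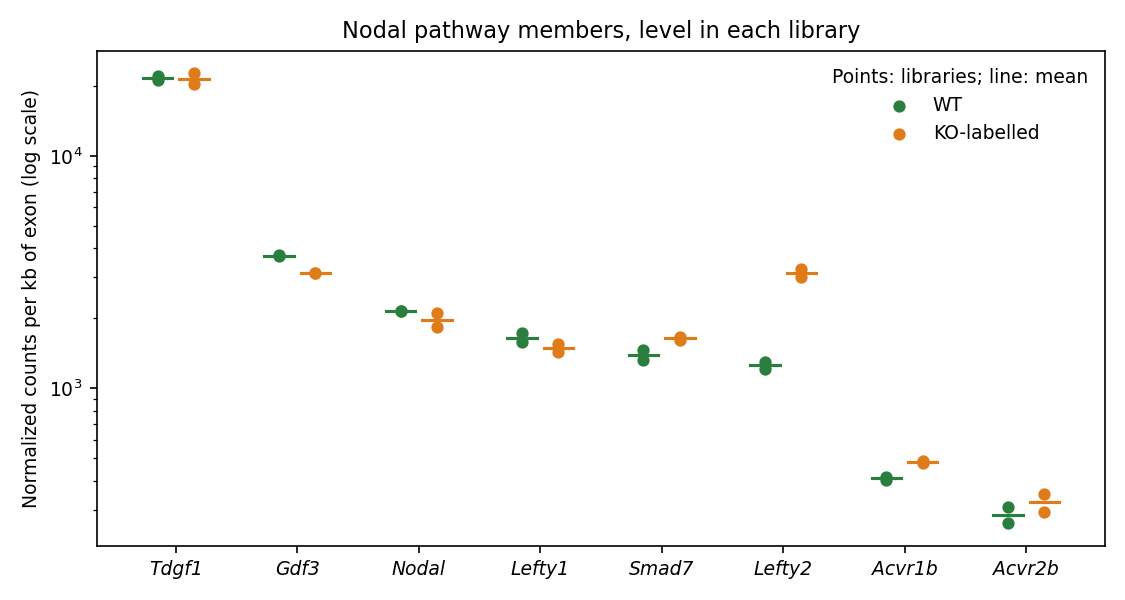
Normalized counts per kilobase of exon (y axis, log scale) of the 8 members tested, with points for libraries, a line for each group mean, WT in green and KO-labelled in orange. The groups of Lefty2 lie farthest apart, with means of 1255 in WT and 3128 in the KO-labelled group, and those of the other members lie close together or overlap.

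The rest of the pathway was described from a list of 39 other genes, of which 33 were tested. At an adjusted p under 0.05 in DESeq2, 8 were higher, 9 were lower and 16 did not pass, and 2 were called higher and 3 lower. Over all tested genes 16.4% were higher, 15.8% lower and 4.51% called. The groups did not overlap for 26 of the 33, against 70.2% of all tested genes, and their median log2 fold change was -0.10, beside 0.0049 over all. Of the 6 genes not tested, *Gdf1* had no count in any library, *Inhba* and *Acvr1c* had at most 3 counts in each, and *Cfc1*, *Foxa2* and *Lhx1* were too low for an adjusted p.

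Among the other ligands and the enzymes that process them, *Inhbb* and *Pcsk6* passed, in opposite directions. Inhbb is the β-B subunit that makes activin B as a pair and inhibin B with the α subunit. *Inhbb* held 4106 and 4105 normalized counts in WT and 12503 and 12313 in the KO-labelled group. The groups are far apart, with almost no spread in either, and the log2 fold change was 1.60 ± 0.07, or 3.02-fold (DESeq2 adjusted p = 1.49e-111). *Inhbb* is also on chromosome 1, whose median was 0.10, and with chromosome medians removed it stood at 1.49. The transcript of the inhibin α subunit, *Inha*, was scarce, at 33.1 and 35.9 normalized counts in WT and 61.8 and 68.9 in the KO-labelled group (log2 fold change 0.92 ± 0.48, adjusted p = 0.139). *Pcsk6*, a convertase that cleaves the Nodal precursor, fell from 3623 and 3599 to 2648 and 2744 normalized counts (log2 fold change -0.42 ± 0.08, adjusted p = 5.23e-06). The other convertase on the list, *Furin*, had a log2 fold change of -0.35 and did not pass (adjusted p = 0.0568). *Inha*, *Pcsk6*, *Furin* and, below, *Fstl3*, *Dact2*, *Bambi*, *Acvr2a*, *Acvr1*, *Tgif1*, *Tgif2*, *Ski* and *Nedd4l* were chosen for mention after their values were seen.

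Of the 5 genes listed as inhibitors at the level of ligands and receptors, 1 was higher (*Dact2*, at a log2 fold change of 0.32) and 2 were lower. *Fst* encodes follistatin, which binds activins and keeps them from their receptors. *Fst* held 329 and 323 normalized counts in WT and 78.4 and 82.9 in the KO-labelled libraries, which is clearly apart, with a log2 fold change of -2.01 ± 0.25, or 4.04-fold lower (DESeq2 adjusted p = 2.35e-14). The follistatin relative *Fstl3* was near the limit of detection, at 23.9 and 27.2 against 7.84 and 3.91 normalized counts, and did not pass (adjusted p = 0.0509). *Bambi*, a decoy receptor without kinase activity, fell from 622 and 660 to 360 and 376 normalized counts (log2 fold change -0.80 ± 0.16, adjusted p = 6.29e-06). Thus the activin subunit transcript *Inhbb* was higher and the transcript of the activin-binding *Fst* lower in the same libraries, while *Lefty2*, which acts on Nodal and not on activins, was higher. Neither receptor tested passed: *Acvr2a* had a log2 fold change of -0.05 (adjusted p = 0.830) and *Acvr1* of -0.77 (0.164).

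The intracellular signal carriers moved in both directions. Smad2 and Smad3 are the receptor-regulated Smads of this pathway. *Smad2* held 2759 and 2615 normalized counts in WT and 3251 and 3664 in the KO-labelled group (log2 fold change 0.36 ± 0.09, DESeq2 adjusted p = 0.000593). *Smad3* held 1055 and 1145 in WT and 776 and 771 in the KO-labelled group (log2 fold change -0.51 ± 0.13, adjusted p = 0.000333). The pair thus went in opposite directions, with no overlap in either gene. *Smad2* no longer passed without WT replicate 2 (0.0505) or KO-labelled replicate 2 (0.114), and *Smad3* without WT replicate 2 (0.0754). *Smad4*, the partner shared with BMP signalling, had a log2 fold change of 0.09 ± 0.09 (adjusted p = 0.501), which was -0.04 with chromosome medians removed. *Foxh1*, the DNA-binding partner of the Smads at Nodal targets, rose from 1466 and 1619 to 2345 and 2098 normalized counts (log2 fold change 0.52 ± 0.11, adjusted p = 8.73e-06).

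Of the 10 intracellular repressors 3 were higher, 3 were lower and 4 did not pass. *Smad6*, an inhibitory Smad that acts mainly on BMP signalling, held 666 and 775 normalized counts in WT and 232 and 269 in the KO-labelled group. The values are well apart, and the log2 fold change was -1.52 ± 0.17 (DESeq2 adjusted p = 1.48e-16), opposite in sign to that of the related *Smad7*. The Smad corepressors *Tgif1* (0.20) and *Tgif2* (0.26) were slightly higher, and the corepressor *Ski* (-0.23) and the ubiquitin ligase gene *Nedd4l* (-0.42) were lower, on the log2 scale of fold change. *Tgif2* is uncertain, since 57.5% of its exonic bases lie in 75-base runs with a copy elsewhere and it overlaps a gene on the opposite strand. *Drap1*, a transcriptional corepressor that limits Nodal signalling in the embryo, held 2498 and 2668 in WT and 3356 and 3879 in the KO-labelled group (log2 fold change 0.49 ± 0.10, adjusted p = 5.92e-06). Its chromosome, 19, had a median of 0.38, and with chromosome medians removed *Drap1* stood at 0.10 (adjusted p = 0.495). It also overlaps an antisense gene, and the strand setting of the counting is not stated, so reads of the pair may be mixed.

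Among the lineage targets, *T* and *Eomes* were lower. *T* (Brachyury), a factor of the primitive streak and mesoderm, held 378 and 425 normalized counts in WT and 27.9 and 32.1 in the KO-labelled group. The KO-labelled level was 13.4-fold lower, with a log2 fold change of -3.74 ± 0.28 (DESeq2 adjusted p = 7.73e-38). *Eomes*, which acts with Nodal in forming mesoderm and endoderm, held 659 and 637 in WT and 326 and 330 in the KO-labelled group (log2 fold change -0.98 ± 0.16, adjusted p = 2.28e-08), just short of the fold change a call needs. Of the 6 lineage targets tested, 3 did not pass at an adjusted p under 0.05. The target genes named here thus went both ways: *Lefty2* and *Smad7* were higher, *T* and *Eomes* lower, and *Nodal* and *Lefty1* did not pass. *Smad7* no longer passed with chromosome medians removed.

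**Figure D3:**
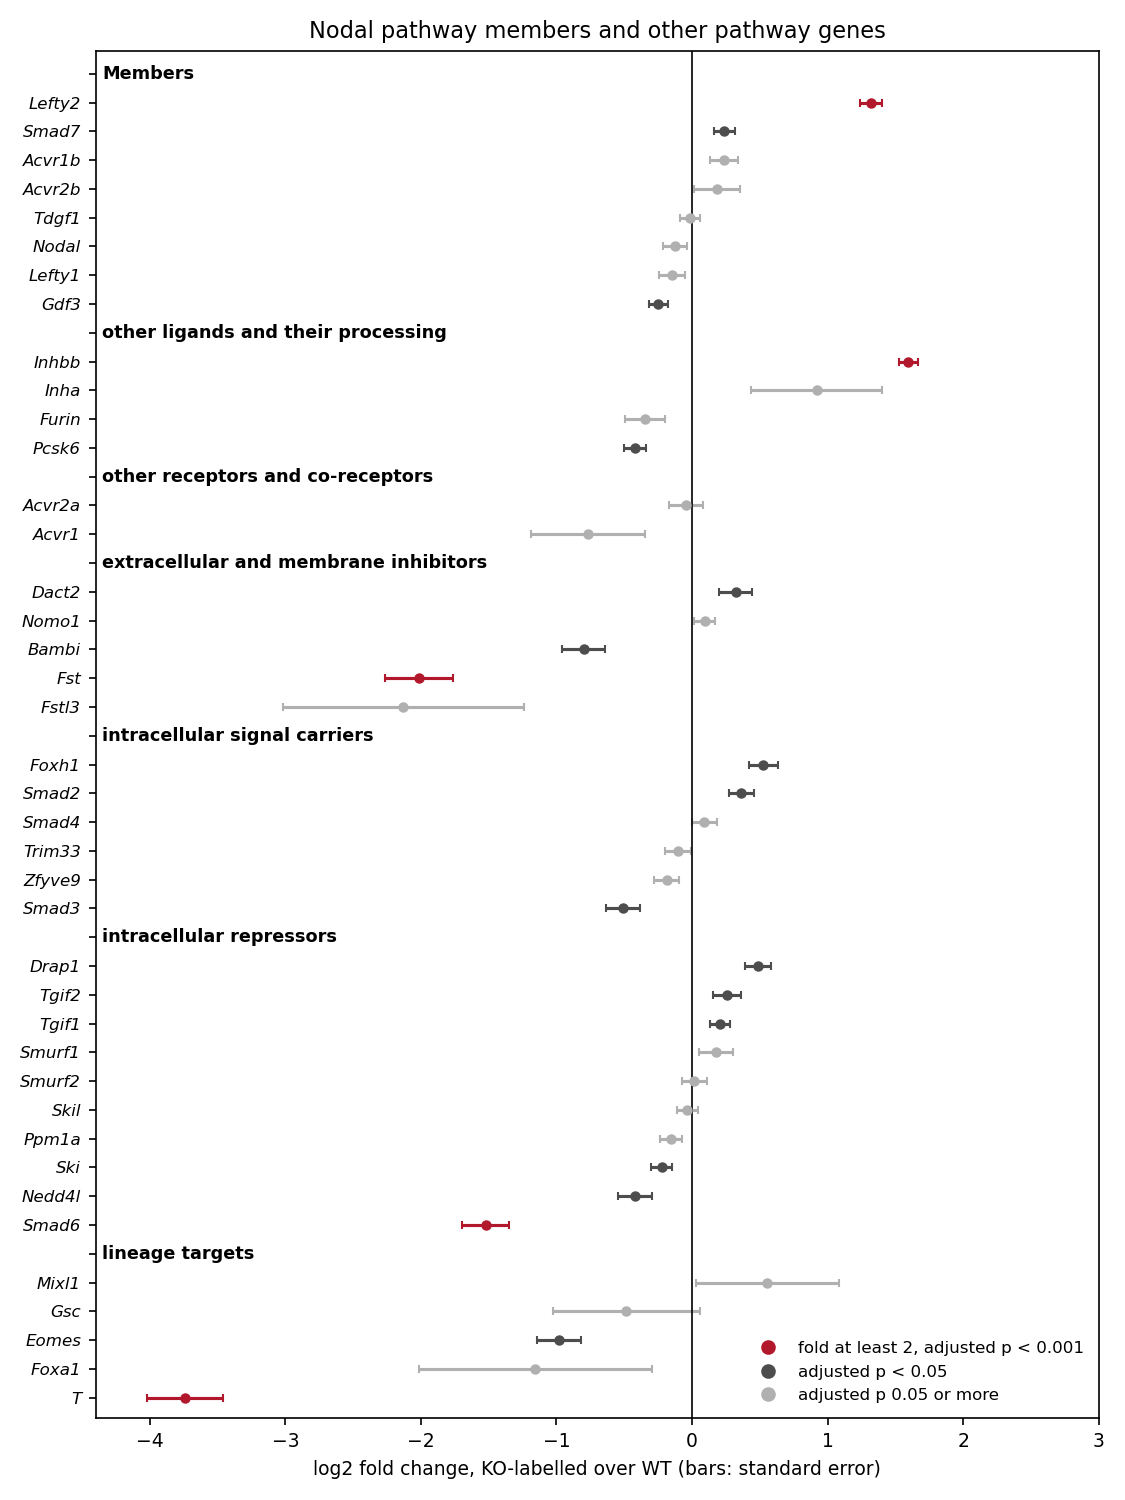
Log2 fold change of KO-labelled over WT libraries (x axis) for the 8 tested members and other pathway genes tested, grouped by role, with bars for the standard error, red for called genes, dark grey for other genes at an adjusted p under 0.05 and light grey for the rest. Inhbb and Lefty2 lie farthest to the right, at 1.60 and 1.32, and T lies farthest to the left, at -3.74.

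Markers of other cell types were measured in the same libraries, where 15.8% of all tested genes were lower. The 7 markers of primitive streak and mesoderm in the table, which include *T* and *Eomes*, summed to 1232 to 1257 normalized counts in WT and 466 to 470 in the KO-labelled libraries, and 3 of the 6 tested were lower (*T*, *Eomes* and *Evx1*). Primitive endoderm markers summed to 3782 to 3878 in WT and 1263 to 1323 in the KO-labelled group, with 3 of 5 tested lower (*Gata4*, *Sox7* and *Lama1*). Trophoblast markers summed to 750 to 799 and to 394 to 402, with 3 of 4 tested lower (*Cdx2*, *Krt7* and *Krt8*), and neuroectoderm markers to 9212 to 9287 and to 8227 to 8604, with 2 of 5 lower (*Pax6* and *Neurog1*). Fibroblast feeder markers summed to 237 to 264 in WT and 455 to 509 in the KO-labelled group, with 1 of 5 tested higher (*Thy1*) and 1 lower (*Twist1*). Of the listed markers, 7 of 8 for primitive endoderm, 5 of 6 for neuroectoderm and 5 of 6 for trophoblast were found in the count table. No marker found there was at 0 in all libraries, and *Postn*, a defining feeder gene, had at most 3 counts in each. Fewer cells of a type and less RNA per cell cannot be told apart in these bulk libraries, and the part of such cells in the values of the pathway genes was not tested.

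The genes around the *Lefty* pair were compared with it. Within 100 kb of *Lefty2*, 5 protein-coding genes other than *Lefty1* were tested, and 4 were higher at an adjusted p under 0.05, with none called. Over all tested genes 16.4% were higher at that threshold and 4.51% were called. These neighbours were not tested as a group. *BC031781*, the nearest tested gene on the left, 25011 bp away, held 5111 and 4759 normalized counts in WT and 6480 and 6850 in the KO-labelled group (log2 fold change 0.43 ± 0.08, DESeq2 adjusted p = 4.40e-07). With chromosome medians removed it stood at 0.33. *Tmem63a*, 43241 bp to the right of *Lefty2* and 3944 bp from *Lefty1*, was named after its values were seen and had the largest change of these neighbours, at 0.77 ± 0.15 (adjusted p = 5.23e-06). It overlaps a gene on the opposite strand, so reads of the pair may be mixed. *Lefty2* changed more than all 5 neighbours, and *Lefty1* was the 1 gene of the region with a log2 fold change below 0.

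**Figure D4:**
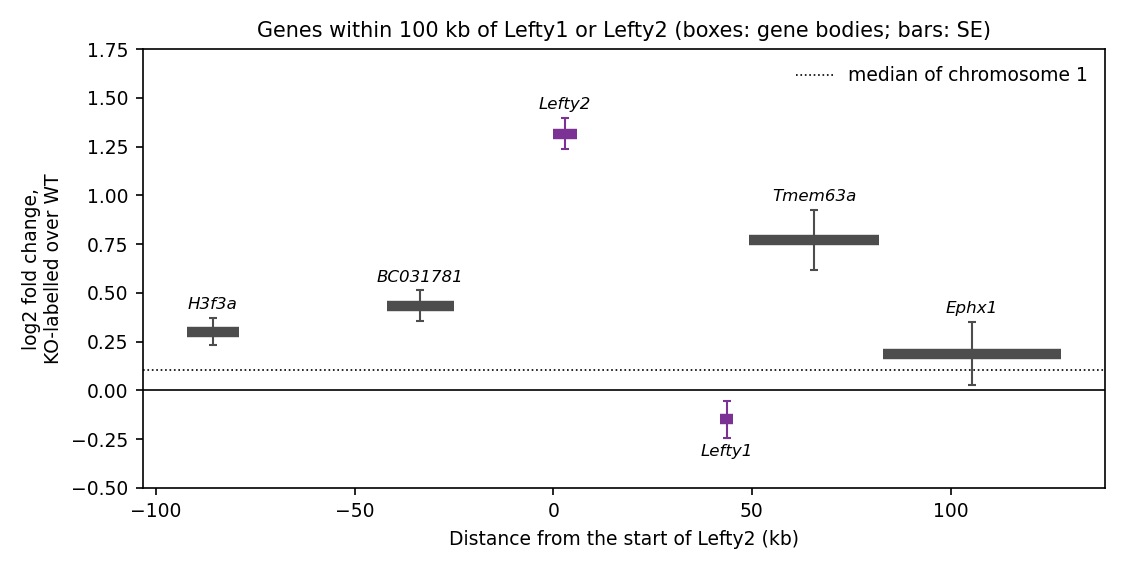
Log2 fold change of KO-labelled over WT libraries (y axis, bars for the standard error) for Lefty2, Lefty1 and tested protein-coding genes within 100 kb, drawn as gene bodies by distance in kb from the start of Lefty2 (x axis), with a dotted line at the median of chromosome 1. Lefty2 stands at 1.32, the neighbours drawn lie between 0.19 and 0.77, and Lefty1 lies at -0.15.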

How the data were processed

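Per the labels and the study's methods, stranded libraries depleted of ribosomal RNA were mapped to mm9 with STAR, and the authors counted reads on GENCODE vM1 genes with featureCounts. The deposited values are raw counts per gene, with no normalization. Versions, the strand setting and how reads with more than 1 match were treated are not given in the sources used here, and the labels and the methods name different sequencers. The groups come from the sample labels and the columns were matched by name, with 0 columns left without a sample. Depth was 36667685 and 43835004 counts in WT, and 54715889 and 61908422 in the KO-labelled libraries, and 11918 of the 37310 genes had no count. The 3-count limit covers counting error only, because no molecular identifiers are described and reads can be copies of 1 molecule.

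All genes were fitted by group in DESeq2 1.42.0 under R 4.3.3, using its Wald test, its default normalization and filtering, and Benjamini-Hochberg adjustment. The test and thresholds follow the study, with edgeR 4.0.16 as an alternative, and the fitting was tested on simulated counts. GENCODE vM1 and the mm9 sequence gave positions, exon lengths and the 75-base runs, and all 37310 identifiers matched. Chromosome medians used genes whose mean normalized count was 50 or more. Members and gene lists were chosen with earlier results of these data known. Genes were named by rule: all 9 members, every called gene of the pathway list, its 4 largest changes per direction at an adjusted p under 0.05, *Smad2*, *Smad3*, *Smad4* and *Foxh1*, called genes near members, the nearest tested genes beside a called member, and *Spen*. Others were chosen after their values were seen. Some genes that the rule names are not reported here, but stay in the counts. No genes of like pattern are named, since 4 libraries in 2 groups give no pattern beyond the group difference.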

Additional observations from a re-analysis of the deposited data

How the results depend on the processing

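*Lefty2* kept its direction and passed the test under every setting that counted it apart from *Lefty1*, with log2 fold changes from 1.21 to 1.38. Over 21 named genes, 210 alternative values were computed: 188 kept their direction and side of the 0.05 threshold, 14 lost and 3 gained the threshold, and 5 changed sign. Those were *Nodal* with chromosome medians removed (0.22), *Smad4* likewise (-0.039), and *Tdgf1* with upper-quartile factors (0.023) and without WT replicate 1 or KO-labelled replicate 1 (the range without 1 library was -0.093 to 0.071). With the *Lefty* counts summed, 0 members were called. With chromosome medians removed, 1 member was higher (*Lefty2*) and 2 were lower (*Gdf3* and *Lefty1*) at an adjusted p under 0.05, and the median of the genes near members was 0.16 instead of 0.29. With the length of the longest transcript, the *Lefty2* to *Lefty1* ratio was 0.742 in WT and 2.05 in the KO-labelled group.

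Leaving out 1 library at a time, where the lone library is assumed to vary like the other group, 1 to 2 members were higher and 0 lower (from 0 to 0) against 2 and 1 with all libraries, and their median ranged from 0.020 to 0.093. For the other pathway genes, 4 to 5 were higher against 8, and the median ranged from -0.15 to 0.027. For the genes near members, 4 to 7 were higher against 10, 2 were lower (from 2 to 2) against 5, and the median ranged from 0.23 to 0.30.

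Replicate numbers did not pair the libraries: the correlation of deviations between same-numbered libraries was -0.02 over 13306 genes. With the replicate block, 1 member was higher and 0 were lower, 5 other pathway genes were higher, and 2 genes near members were lower. *Cer1* had no value in fits with a filter on low counts. With 2 libraries per group, the depth of the WT libraries and the spread limit genes of low counts such as *Inha*, *Fstl3* and *Cer1* first.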

Other observations

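The genes around the other members gave the following values. Within 100 kb of the members lay 39 protein-coding genes, of which 34 were tested, and 10 were higher, 5 lower and none called (DESeq2, adjusted p under 0.05). Over all tested genes 16.4% were higher, 15.8% lower and 4.51% called. The median log2 fold change of the 34 was 0.29, beside 0.0049 over all tested genes. Genes named here were chosen after their values were seen, and the same-direction neighbours were not tested as a group.

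Near *Nodal*, both genes that passed were lower. They were *X99384*, 34449 bp away, with a log2 fold change of -0.23 ± 0.08 (adjusted p = 0.0181), and *Eif4ebp2*, an inhibitor of cap-dependent translation 7159 bp away, at -0.35 ± 0.08 (adjusted p = 0.000271), beside the chromosome median of -0.35. Near *Gdf3*, 1 of 5 tested genes passed. This was *Dppa3*, a gene of naive pluripotent and germ cells 16323 bp away, which fell from 3627 and 3619 to 2381 and 2565 normalized counts (log2 fold change -0.55 ± 0.09, adjusted p = 4.72e-09). Of its exonic bases 46.6% have a 75-base copy elsewhere, so its counts are uncertain. *Nanog*, also within 100 kb of *Gdf3*, had a log2 fold change of -0.06 (adjusted p = 0.657).

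Near *Tdgf1*, all 7 tested genes had a log2 fold change above 0, and 2 passed. *Prss45*, 98297 bp away, was scarce, at 15.9 and 16.3 normalized counts in WT and 49.6 and 54.0 in the KO-labelled group (log2 fold change 1.68 ± 0.60, adjusted p = 0.0187), and had the largest change of the tested neighbours. *Prss50*, 74982 bp away, stood at 0.35 ± 0.14 (adjusted p = 0.0320).

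Near *Acvr1b*, 3 of 4 tested genes were higher. The closest of them, *Grasp*, rose from 320 and 377 to 584 and 546 normalized counts (log2 fold change 0.70 ± 0.17, adjusted p = 0.000424). *Nr4a1*, an orphan nuclear receptor gene that responds early to stimuli, stood at 0.48 ± 0.14 (adjusted p = 0.00271). *Acvrl1*, a type I receptor gene of the same receptor family, was low, at 61.0 and 25.0 normalized counts in WT and 92.3 and 93.9 in the KO-labelled group, and was at the threshold (log2 fold change 1.13 ± 0.47, adjusted p = 0.0497). Near *Acvr2b*, *Xylb* was higher (0.60 ± 0.15, adjusted p = 0.000521) and *Oxsr1* lower (-0.25 ± 0.08, adjusted p = 0.00514).

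Near *Cer1*, 1 of 2 tested genes was lower (*Zdhhc21*, at -0.29 ± 0.10, adjusted p = 0.0199), and near *Smad7* neither of the 2 tested genes passed.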
